A study of Mus musculus with 9 samples.

Results

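Respiratory complexes II to V pass electrons from succinate and from ubiquinol to oxygen and use the proton gradient that results to make ATP, and nearly all of their subunits are encoded in the nucleus. The genes described here were found by name: the Sdh genes of complex II, Cyc1 and the Uqcr genes of complex III, the Uqcc assembly factors of complex III, the Cox4 to Cox8 genes of complex IV and the Atp5 genes of complex V. The name rule itself uses no measured value, but these complexes were chosen with earlier results of these data known. It took 51 of the 22180 genes that had a symbol of their own on the array, among them 4 genes of complex II, 8 of complex III, 3 assembly factors, 17 of complex IV, 17 of complex V and 2 pseudogenes. In the Pum2 precipitate, all 4 complex II genes and the nuclear redox and core genes of complex III (Cyc1, Uqcrc1, Uqcrc2 and Uqcrfs1) were higher than in the nonspecific precipitate. So were 1 assembly factor, 1 gene of complex IV and 5 of complex V. Lower were 2 genes for small subunits of complex III (Uqcrh and Uqcrb), 2 assembly factors, 5 genes of complex IV and 5 of complex V. Of all genes, 19.4% were higher and 11.4% lower. The calls of Uqcrb, Uqcrfs1 and Cox5b, the higher gene of complex IV, ended in some fits without 1 array. Atp5h of complex V, counted as higher, turned to -0.30 by the mean of its 2 array rows, not past the threshold. Against total RNA, the nonspecific precipitate had 32 of the 51 genes lower and 0 higher (9.72% and 8.25% of all genes). Sdha was the 1 complex II gene that was higher with Pum2 than in total RNA. Sdhb, Sdhc and Sdhd did not pass there, and were lower in the nonspecific precipitate than in total RNA.

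Complex II, succinate dehydrogenase, belongs to both the citric acid cycle and the respiratory chain. Complex III hands electrons to cytochrome c, complex IV uses them to reduce oxygen, and complex V, the ATP synthase, turns as protons flow back through it. The mitochondrial genome encodes the catalytic subunits of complex IV and a few subunits of complexes III and V, so that each of these complexes is built from proteins of both genomes, whereas complex II is wholly nuclear. Pum2 belongs to the Pumilio family of RNA-binding proteins, which mostly lower the translation or stability of the mRNAs they bind, and a yeast member of this family is known to bind mRNAs for mitochondrial proteins.

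Cortical tissue was taken from CD1 embryos of wild-type genotype, at embryonic days 12 to 13, for all groups. The groups were RNA precipitated with a rabbit antibody to Pumilio2 (called Pum2), RNA precipitated with normal rabbit IgG, and total RNA with no antibody (input), with 3 biological replicates each on Mouse Gene 2.0 ST arrays. The labels do not say how many embryos went into a replicate. Values are log2 signals made by the authors with RMA, which sets the arrays to a common distribution, so a higher value means a larger share relative to other transcripts and not a larger amount. In bulk tissue fewer cells of a type and less RNA per cell cannot be told apart. Of 9 cortical marker genes 8 were measured, and their mean log2 signal was 9.47 to 9.59 in Pum2, 9.17 to 9.23 in IgG and 9.05 to 9.11 in input arrays. Of these 8 genes 4 were higher in Pum2 than in IgG (limma, adjusted p under 0.05), where 19.4% of all genes were. In IgG over input 2 of the 8 were higher and 1 lower (8.25% and 9.72% of all genes). Skeletal and heart muscle markers (5 genes) averaged 5.30 to 5.38 in Pum2, 5.17 to 5.29 in IgG and 5.19 to 5.43 in input arrays, under the median gene of 6.08. Other cell types that cortical tissue holds were read from lists of endothelial, microglial and meningeal markers (3 genes each, 1 of each list higher in Pum2 than in IgG) and from 2 of 4 erythroid genes. The lists averaged 9.001 to 9.109, 6.51 to 6.62, 8.23 to 8.51 and 7.44 to 7.65 in Pum2 arrays, and 8.39 to 8.88, 6.21 to 6.46, 7.84 to 8.21 and 7.69 to 7.92 in IgG arrays. In input arrays they averaged 8.403 to 8.44, 6.232 to 6.451, 7.551 to 7.778 and 7.697 to 8.001. Of these lists 1 endothelial, 1 microglial, 2 meningeal and 0 erythroid genes were higher in IgG than in input. The part of all these markers in the results below was not tested.

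Against IgG, the background of the precipitation, 15 of the 51 genes were higher with Pum2 and 14 lower (limma over all genes, Benjamini-Hochberg adjusted p under 0.05). Over all 22180 genes tested, 19.4% were higher and 11.4% lower. Among the genes at or above the median level, where 40 of the 51 lay, these shares were 34.1% and 18%. In all there were 4296 higher and 2519 lower genes, but 3092 and 3495 when arrays were centred on brighter genes. By array, 17 of the 51 genes had all Pum2 arrays above all IgG arrays (25.9% of all genes did) and 16 had them below (15.4%). The median log2 difference was -0.01 for the 51 genes and 0.04 for all genes. Differences ran from -1.28 for Cox7b to 0.65 for Uqcc1, and the members of each complex other than complex II went both ways. The grouping by role used in the next paragraphs is textbook knowledge, made with the values known, and carries no test of its own.

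**Figure D1:**
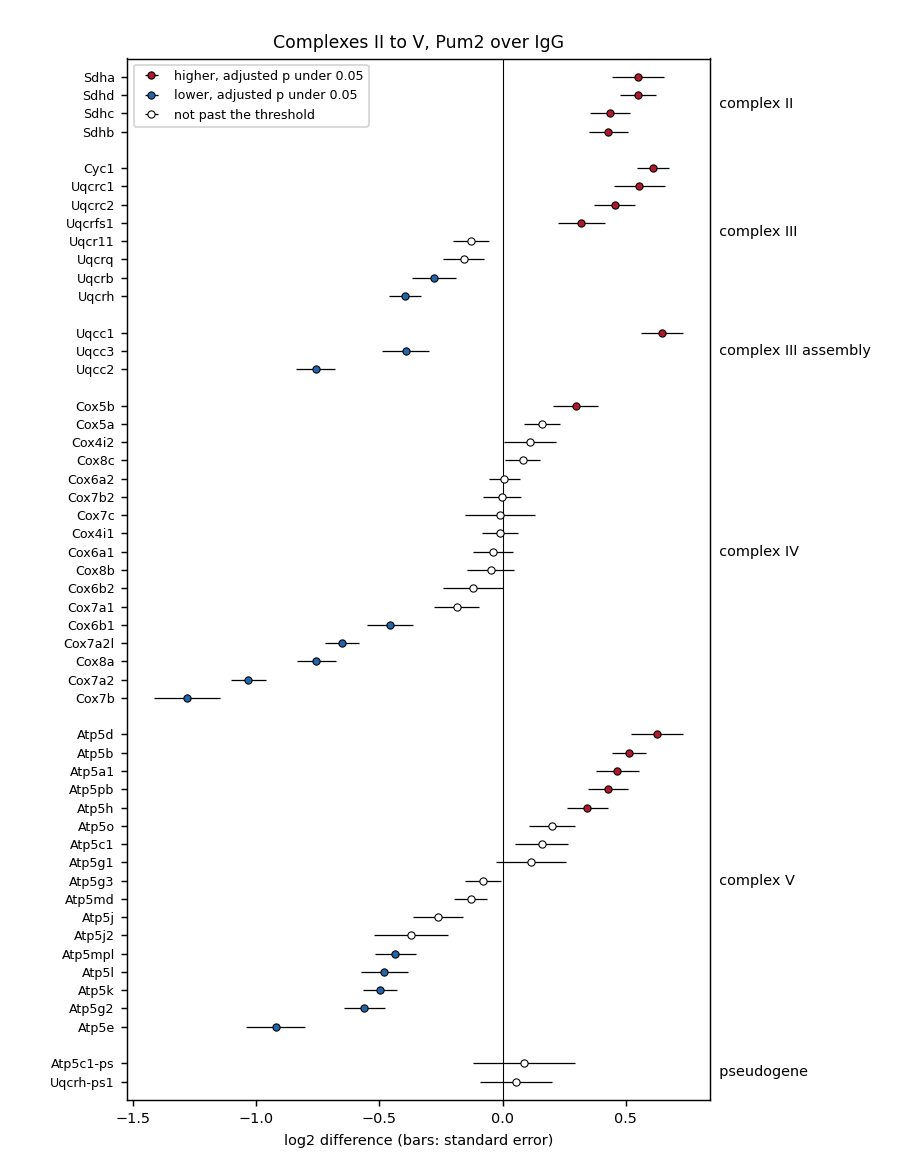
Log2 difference of Pum2 over IgG (x axis) for each of the 51 genes (y axis), ordered within each complex, with standard errors as bars and filled points for genes past the threshold. The 4 Sdh genes lie between 0.43 and 0.55, whereas complexes III to V each spread over both sides of 0.

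The 4 genes of complex II were all higher with Pum2 than with IgG. Sdha encodes the flavoprotein that oxidises succinate, and its log2 signals were 10.70, 10.51 and 10.60 in Pum2 arrays and 10.16, 9.85 and 10.16 in IgG arrays. Sdhb, the iron-sulfur subunit, stood at 10.20, 10.23 and 10.35 with Pum2 and at 9.91, 9.72 and 9.87 with IgG. The membrane anchors Sdhc and Sdhd, which hold the quinone site, were measured at 7.03, 7.07 and 7.14 and at 9.60, 9.71 and 9.55 with Pum2, against 6.67, 6.60 and 6.67 and 9.12, 9.06 and 9.05 with IgG. For each of the 4 genes every Pum2 array lay above every IgG array. The differences were 0.55 ± 0.11 for Sdha, 0.43 ± 0.08 for Sdhb, 0.44 ± 0.08 for Sdhc and 0.55 ± 0.07 for Sdhd (log2 ± SE, n = 3 arrays per group). Adjusted p-values from limma were 0.00275, 0.0021, 0.00214 and 0.000285. Expressed as folds, they were 1.46-fold, 1.35-fold, 1.35-fold and 1.46-fold higher. The median of the complex, 0.49, was 0.40 after quantile normalization or centring on brighter genes.

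The bases before the transcription starts of the Sdh genes are shown for those in the RefSeq promoter table (GRCm38.p6). Beside them are those of Cox7b and Atp5e, picked as the genes with the lowest differences of complexes IV and V by the array rows used here. Whether promoter sequence bears on the differences between precipitates was not tested. Each line is the 100 bases up to the annotated start, 5′ to 3′ on the strand of the gene. Capitals mark GCGCA and GCGC set 1 base apart, on either strand, the core of the site of nuclear respiratory factor 1, a known activator of respiratory genes, and CCGGAAGT, an ETS-type site, was searched too and has no match in these windows.
Sdha (chr13:74350241-74350340, minus strand): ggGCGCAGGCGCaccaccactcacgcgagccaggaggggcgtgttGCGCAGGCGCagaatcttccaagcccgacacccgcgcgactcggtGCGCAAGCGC
Sdhb (chr4:140961171-140961270, plus strand): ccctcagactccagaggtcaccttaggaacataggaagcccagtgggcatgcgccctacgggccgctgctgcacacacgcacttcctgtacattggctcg
Sdhd (chr9:50603850-50603949, minus strand): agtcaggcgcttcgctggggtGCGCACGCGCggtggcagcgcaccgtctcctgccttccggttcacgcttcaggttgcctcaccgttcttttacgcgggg
Cox7b (chrX:106015600-106015699, plus strand): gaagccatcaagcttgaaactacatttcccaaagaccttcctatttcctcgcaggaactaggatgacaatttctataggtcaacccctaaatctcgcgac
Atp5e (chr2:174464102-174464201, minus strand): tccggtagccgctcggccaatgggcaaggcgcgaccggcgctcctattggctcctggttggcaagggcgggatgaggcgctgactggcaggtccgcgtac
The Sdha window holds 3 such matches and the Sdhd window 1. In the 300 bases around annotated starts, this motif occurred in 11 of the 38 members in the table (28.9%) and in 5.2% of all 27025 genes there. CCGGAAGT occurred in 4 of 38 (10.5%) and in 4.3% of all genes. By direction against IgG, the motif of nuclear respiratory factor 1 was found in 4 of 11 genes that were higher, 3 of 12 that were lower and 4 of 15 not past the threshold. These are matches of letters, and binding was not measured.

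In complex III the nuclear genes of redox and core subunits rose against IgG and some of those of small subunits fell. CYTB, the mitochondrially encoded cytochrome b of this complex, gave -3.55 ± 0.14 (limma, adjusted p = 5e-07). Cyc1, cytochrome c1, had log2 signals of 11.53, 11.50 and 11.54 with Pum2 and 10.94, 10.87 and 10.93 with IgG, a rise of 0.61 ± 0.07 (adjusted p = 8.18e-05). The large core proteins Uqcrc1 and Uqcrc2 rose by 0.55 ± 0.10 and 0.45 ± 0.08 (adjusted p = 0.00223 and 0.00234). The Rieske iron-sulfur protein gene Uqcrfs1 rose by 0.32 ± 0.10 (adjusted p = 0.0288). Uqcrh, the hinge protein that contacts cytochrome c1, was measured at 7.36, 7.35 and 7.36 with Pum2 and 7.76, 7.78 and 7.72 with IgG. Its arrays did not overlap, and it fell by 0.40 ± 0.06 (adjusted p = 0.00105). Uqcrb, a small subunit near the quinone site, fell by 0.28 ± 0.09 (adjusted p = 0.038, and 0.061 with the replicate number as a block). Differences of Uqcrq and Uqcr11, small membrane subunits, were -0.16 ± 0.08 and -0.13 ± 0.07, not past the threshold (adjusted p = 0.196 and 0.23).

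Of these, the calls of Uqcrb and Uqcrfs1 each ended in 5 of the 9 fits that left out 1 array. For Uqcrb the difference was -0.29 without Pum2 replicate 1, -0.21 without Pum2 replicate 2, -0.23 without IgG replicate 1, -0.29 without IgG replicate 2 and -0.28 without input replicate 3. For Uqcrfs1 it was 0.34 without Pum2 replicate 1 or 2, 0.27 without Pum2 replicate 3 or IgG replicate 2 and 0.26 without IgG replicate 3. Both calls ended with only the compared groups in the fit (adjusted p = 0.0596 for Uqcrb and 0.06 for Uqcrfs1). The Uqcrfs1 call also ended after quantile normalization (0.23) and with arrays centred on the brighter genes (0.22), settings under which Uqcrq and Uqcr11 passed as lower (-0.27 and -0.25 for Uqcrq, -0.23 and -0.22 for Uqcr11).

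The assembly factors of complex III went opposite ways. Uqcc1, which acts early in making cytochrome b, stood at 7.74, 7.81 and 7.71 with Pum2 and at 6.94, 7.21 and 7.15 with IgG. Its difference of 0.65 ± 0.08, 1.57-fold, was the largest rise among the 51 genes (adjusted p = 0.000281). Uqcc2, its partner in the same complex, was measured at 7.55, 7.39 and 7.55 with Pum2 and 8.28, 8.28 and 8.21 with IgG. It fell by 0.76 ± 0.08 (adjusted p = 7.36e-05), with every Pum2 array below every IgG array. Uqcc3, a later factor of the same pathway, fell by 0.39 ± 0.10 (adjusted p = 0.0101).

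In complex IV 1 of 17 genes was higher with Pum2 than with IgG (5.88%, against 19.4% of all genes) and 5 were lower (29.4%, against 11.4%). Cox7b, a small subunit needed to assemble the enzyme, had log2 signals of 10.16, 9.81 and 10.39 in Pum2 arrays and 11.44, 11.44 and 11.32 in IgG arrays. Its difference of -1.28 ± 0.14, 2.43-fold lower, was the largest fall of all 51 genes (adjusted p = 7.62e-05), and the Pum2 arrays were more spread than those of either other group. A second row of the array for Cox7b, at a lower brightness, read 5.46, 5.36 and 5.62 with Pum2 and 6.80, 6.60 and 6.75 with IgG, also without overlap. Cox7a2, the form of subunit 7a found in most tissues, stood at 10.62, 10.73 and 10.68 with Pum2 and 11.75, 11.74 and 11.64 with IgG. It fell by 1.03 ± 0.07, 2.04-fold (adjusted p = 8.12e-06). Cox8a, Cox7a2l and Cox6b1 fell by 0.76 ± 0.08, 0.65 ± 0.07 and 0.46 ± 0.09 (adjusted p = 6.97e-05, 8.06e-05 and 0.00399). Cox8a and Cox6b1 are small subunits of the membrane and of the intermembrane face, and Cox7a2l helps to join complexes III and IV into supercomplexes.

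Cox5b, the zinc-binding subunit on the matrix side, was the 1 higher gene of complex IV, with 10.54, 10.39 and 10.61 in Pum2 arrays and 10.37, 10.12 and 10.16 in IgG arrays. Its difference was 0.30 ± 0.09 (adjusted p = 0.0309). The call ended without Pum2 replicate 1 (0.28) or 3 (0.25) and without IgG replicate 2 (0.25) or 3 (0.27), and also after quantile normalization (0.17), with centring on brighter genes (0.20), with the mean of its 2 array rows (0.17) or with only the compared groups in the fit (0.30). The main housekeeping forms Cox4i1 and Cox6a1 differed from IgG by -0.01 ± 0.07 and -0.04 ± 0.08 (adjusted p = 0.929 and 0.779). Cox5a, the partner of Cox5b on the matrix side, and Cox7c, a small membrane subunit, gave 0.16 ± 0.07 and -0.01 ± 0.14 (adjusted p = 0.135 and 0.972).

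Complex V divided between 5 higher and 5 lower genes among 17, or 29.4% each. Of all genes 19.4% were higher and 11.4% lower, and of those at or above the median level 34.1% and 18%. Atp5b, the catalytic beta subunit of the F1 head, stood at 13.12, 13.01 and 13.08 with Pum2 and at 12.54, 12.52 and 12.62 with IgG, a rise of 0.51 ± 0.07 (adjusted p = 0.000327). Atp5a1, the alpha subunit that forms the head with it, rose by 0.47 ± 0.09 (adjusted p = 0.00243). Atp5d, the delta subunit of the central stalk, was measured at 6.50, 6.42 and 6.82 with Pum2 and 6.01, 5.996 and 5.84 with IgG, and rose by 0.63 ± 0.11 (adjusted p = 0.00131). Atp5c1, the gamma subunit of the same stalk, gave 0.16 ± 0.11 (adjusted p = 0.313), and without IgG replicate 2 it passed at 0.29. Of the peripheral stalk, which holds the head still, Atp5pb rose by 0.43 ± 0.08 and Atp5h, by the brighter of its 2 rows, by 0.34 ± 0.08 (adjusted p = 0.00273 and 0.00933). Its other parts, Atp5o and Atp5j, gave 0.20 ± 0.09 and -0.26 ± 0.10 (adjusted p = 0.143 and 0.0818). Atp5j passed as lower without Pum2 replicate 3 (-0.34) or IgG replicate 3 (-0.35), after quantile normalization (-0.31), with centring on brighter genes (-0.36) and among genes at or above the median level (-0.26).

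The rows of Atp5h did not move together. The row used here, the brighter one, read 11.41, 11.56 and 11.54 with Pum2 and 11.28, 11.03 and 11.17 with IgG. The other row read 4.97, 5.13 and 5.19 with Pum2 and 5.78, 5.98 and 6.38 with IgG, so that the mean of both rows gave a difference of -0.30, not past the threshold (adjusted p = 0.0739). Which row follows the Atp5h transcript was not tested. Atp5h lies on chromosome 11. Array rows are numbered mostly in chromosome order, and the dimmer row stands between those of Atp5g1 (chromosome 11) and Cox8c (chromosome 12). The brighter row stands between those of Cyc1 and Uqcrh-ps1, both on chromosome 15. The rows used for Cox5b and Atp5g2 also stand among rows of genes on other chromosomes. Rows of Atp5d, Atp5e, Atp5g2, Cox5b and Cox7b, the other genes with 2 rows, gave the same calls in Pum2 over IgG by their mean, Cox5b excepted.

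The lower genes of complex V were small subunits. Atp5e, the epsilon subunit of the central stalk, had 8.97, 9.20 and 9.44 in Pum2 arrays and 10.15, 10.13 and 10.08 in IgG arrays. It fell by 0.92 ± 0.12, 1.89-fold (adjusted p = 0.000255). Its second, dimmer row read 6.500, 6.27 and 6.225 with Pum2 and 6.507, 6.52 and 6.53 with IgG, and the mean of both rows gave -0.55 (adjusted p = 0.000261). Atp5g2, a gene for the rotating ring in the membrane, fell by 0.56 ± 0.08 (adjusted p = 0.000596). Atp5k, Atp5l and Atp5mpl, accessory subunits of the membrane part, fell by 0.50 ± 0.07, 0.48 ± 0.10 and 0.43 ± 0.08 (adjusted p = 0.000355, 0.00364 and 0.00279). For each of these 5 genes the Pum2 arrays lay wholly below the IgG arrays. Atp5md and Atp5j2, accessory subunits too, gave -0.13 ± 0.07 and -0.37 ± 0.15 (adjusted p = 0.183 and 0.0923). Atp5j2 passed as lower without IgG replicate 2 (-0.54), and with arrays centred on brighter genes both passed (-0.22 for Atp5md, -0.47 for Atp5j2). Atp5md also passed with an intensity trend and a robust prior (-0.13).

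**Figure D2:**
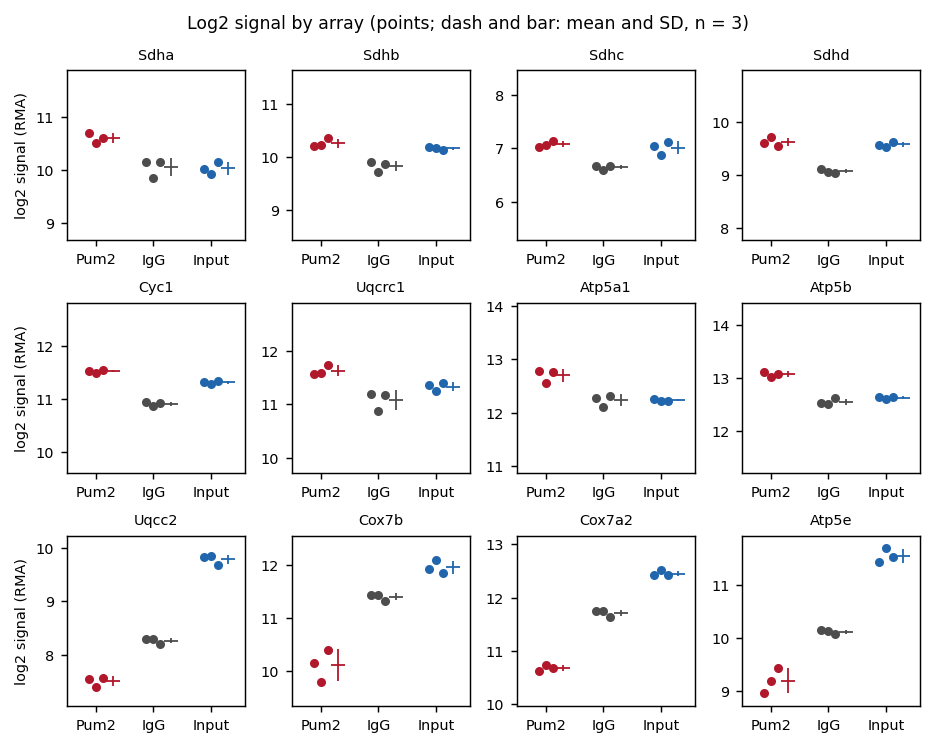
Log2 signal (y axis, a window of equal height in each panel) of 12 genes in the 3 Pum2, 3 IgG and 3 input arrays, with the mean and SD beside the points. In the upper 8 panels the Pum2 arrays lie above the IgG arrays, and in the 4 lowest panels the Pum2 arrays lie below the IgG arrays and these below the input arrays.

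The 2 control groups differed from each other for most of these genes. In IgG over input, which uses no Pum2 array, 32 of the 51 genes were lower and 0 higher, where 9.72% of all genes were lower and 8.25% higher. At an unadjusted p under 0.05, 34 were lower and 1, Uqcrh-ps1, higher. The IgG arrays lay wholly below the input arrays for 34 of the 51 genes and wholly above for 0 (16.2% and 15.9% of all genes). The median difference was -0.44 for the 51 genes and 0.02 for all genes. Values in the nonspecific precipitate were thus below those of total RNA for genes of each complex, with 3 of 4 genes lower in complex II, 5 of 8 in complex III, 3 of 3 assembly factors, 10 of 17 in complex IV and 11 of 17 in complex V. Uqcc2 averaged 8.26 ± 0.04 in IgG arrays and 9.79 ± 0.09 in input arrays (SD, n = 3 each), a fall of 1.53 ± 0.08 (adjusted p = 5.92e-05). Atp5e averaged 10.12 ± 0.04 in IgG arrays and 11.55 ± 0.14 in input arrays and fell by 1.43 ± 0.12 (adjusted p = 0.000121). Cox5b, Atp5mpl, Uqcc3 and Uqcr11 fell by 1.13 ± 0.09, 1.07 ± 0.08, 1.04 ± 0.10 and 1.02 ± 0.07. The 6 genes that were higher in Pum2 than in input, described in the next paragraph, differed among themselves here. Cyc1 fell by 0.40 ± 0.07 (adjusted p = 0.0023), and Uqcrc1 gave -0.25 ± 0.10, not past the threshold though its IgG arrays lay wholly below input (adjusted p = 0.124). Sdha, Atp5a1, Atp5b and Uqcrc2 gave 0.02 ± 0.11, 0.01 ± 0.09, -0.07 ± 0.07 and -0.08 ± 0.08, none past the threshold (adjusted p = 0.911, 0.971, 0.544 and 0.564).

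Against input, 6 of the 51 genes were higher with Pum2 and 29 lower, where 21.6% of all genes were higher and 13.1% lower (4793 and 2895 genes, or 3762 and 3444 with arrays centred on brighter genes). The Pum2 arrays lay wholly above the input arrays for 11 of the 51 genes and wholly below for 29 (28.5% and 16.8% of all genes). The median was -0.33 for the 51 genes and 0.07 for all genes. This comparison shares the Pum2 arrays with the first and the input arrays with the second, so its values stand beside theirs and are not independent of them. The 6 higher genes were Sdha (0.57 ± 0.11), Atp5a1 (0.47 ± 0.09), Atp5b (0.44 ± 0.07), Uqcrc2 (0.37 ± 0.08), Uqcrc1 (0.30 ± 0.10) and Cyc1 (0.21 ± 0.07), with adjusted p-values of 0.00166, 0.00173, 0.000597, 0.00606, 0.0443 and 0.0297. Sdha had input signals of 10.02, 9.92 and 10.16 and Atp5b of 12.64, 12.60 and 12.64, all below the Pum2 values of these genes given above. The calls of Uqcrc1 and Cyc1 ended in most fits without 1 array, while their differences stayed above 0. For Uqcrc1 the call ended without any 1 of Pum2 replicates 1 to 3 (0.33, 0.33 and 0.24), input replicates 1 to 3 (0.31, 0.26 and 0.34) or IgG replicate 3 (0.30), and for Cyc1 without any 1 of Pum2 replicates 1 to 3 (0.21, 0.22 and 0.20) or input replicates 1 or 2 (0.21 and 0.19). With arrays centred on brighter genes neither passed (0.23 and 0.14).

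For the other 3 genes of complex II, Sdhb, Sdhc and Sdhd, the Pum2 arrays differed from input by 0.09 ± 0.08, 0.07 ± 0.08 and 0.04 ± 0.07, none past the threshold (adjusted p = 0.412, 0.561 and 0.705), while their IgG arrays were lower than input by 0.34 ± 0.08, 0.37 ± 0.08 and 0.51 ± 0.07 (adjusted p = 0.0142, 0.0101 and 0.00113). Their input signals were 10.20, 10.17 and 10.13 for Sdhb, 7.04, 6.88 and 7.12 for Sdhc and 9.57, 9.54 and 9.63 for Sdhd. Uqcrfs1, Atp5d and Uqcc1 likewise gave 0.10 ± 0.10, 0.20 ± 0.11 and 0.20 ± 0.08 against input (adjusted p = 0.501, 0.194 and 0.0926). Uqcc1 passed as higher with only the compared groups in the fit, among genes at or above the median level and without IgG replicate 1 (0.20 in each). Atp5pb, Atp5h and Cox5b, higher with Pum2 than with IgG, fell against input by 0.28 ± 0.08, 0.32 ± 0.08 and 0.84 ± 0.09 (limma, adjusted p = 0.0236, 0.0109 and 5.44e-05). The Atp5pb call ended without Pum2 replicate 2 (-0.25) or without input replicate 1 (-0.27), 2 (-0.28) or 3 (-0.28), and that of Atp5h after quantile normalization (-0.23). The mean of both Atp5h rows gave -0.64 against input (adjusted p = 0.00146).

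The largest differences from input were falls. Atp5e, with input signals of 11.43, 11.70 and 11.52, was 5.08-fold lower with Pum2 (-2.35 ± 0.12, adjusted p = 5.28e-07). In its second row input read 7.08, 7.04 and 6.91, and the mean of both rows gave -1.51 against input (adjusted p = 3.73e-07), a smaller fall than those of Cox7b and Cox7a2. Uqcc2, with 9.83, 9.85 and 9.68 in input, was 4.88-fold lower (-2.29 ± 0.08, adjusted p = 8.32e-08). Cox7b and Cox7a2 stood at 11.91, 12.09 and 11.85 and at 12.42, 12.51 and 12.43 in input and were 3.56-fold and 3.42-fold lower with Pum2 (adjusted p = 5.18e-06 and 1.69e-07). In all 4 of these genes, by the rows used here, the Pum2 arrays lay below the IgG arrays and the IgG arrays below the input arrays. Cox8a differed from that order. Its IgG arrays (11.26, 11.18 and 11.11) overlapped the input arrays (11.15, 11.24 and 11.13), and the Pum2 arrays (10.32, 10.49 and 10.48) lay below both. Cox4i1 and Cox6a1 were lower than input in both precipitates, by 0.63 ± 0.07 and 0.76 ± 0.08 with Pum2 and by 0.62 ± 0.07 and 0.73 ± 0.08 with IgG.

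Further falls against input were smaller than those of these 4 genes by the rows used here. Uqcrh, Uqcr11, Uqcrb and Uqcrq fell by 1.29 ± 0.06, 1.15 ± 0.07, 0.93 ± 0.09 and 0.90 ± 0.08, and Uqcc3 by 1.43 ± 0.10. In complex IV the remaining falls were those of Cox7a2l (-1.27), Cox6b1 (-1.25), Cox6b2 (-0.83), Cox7c (-0.52), Cox5a (-0.42) and Cox7a1 (-0.28). In complex V they were those of Atp5mpl (-1.51), Atp5k (-1.36), Atp5l (-0.83), Atp5j (-0.75), Atp5g2 (-0.68), Atp5g3 (-0.59), Atp5md (-0.44) and Atp5o (-0.33). The rows of Cox7c and Atp5o, with means of 5.74 and 4.87 over the 9 arrays, lay below the median gene of 6.08. The Cox7a1 call ended without Pum2 replicate 1 or 3 (-0.24 each), input replicate 2 (-0.24) or 3 (-0.26) or IgG replicate 2 (-0.28), and with only the compared groups in the fit (adjusted p = 0.0519). That of Cox7c ended without Pum2 replicate 2 (-0.43) or input replicate 1 (-0.43) or 2 (-0.48), and that of Atp5o without Pum2 replicate 3 (-0.27) or input replicate 2 (-0.305) or 3 (-0.3128).

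**Figure D3:**
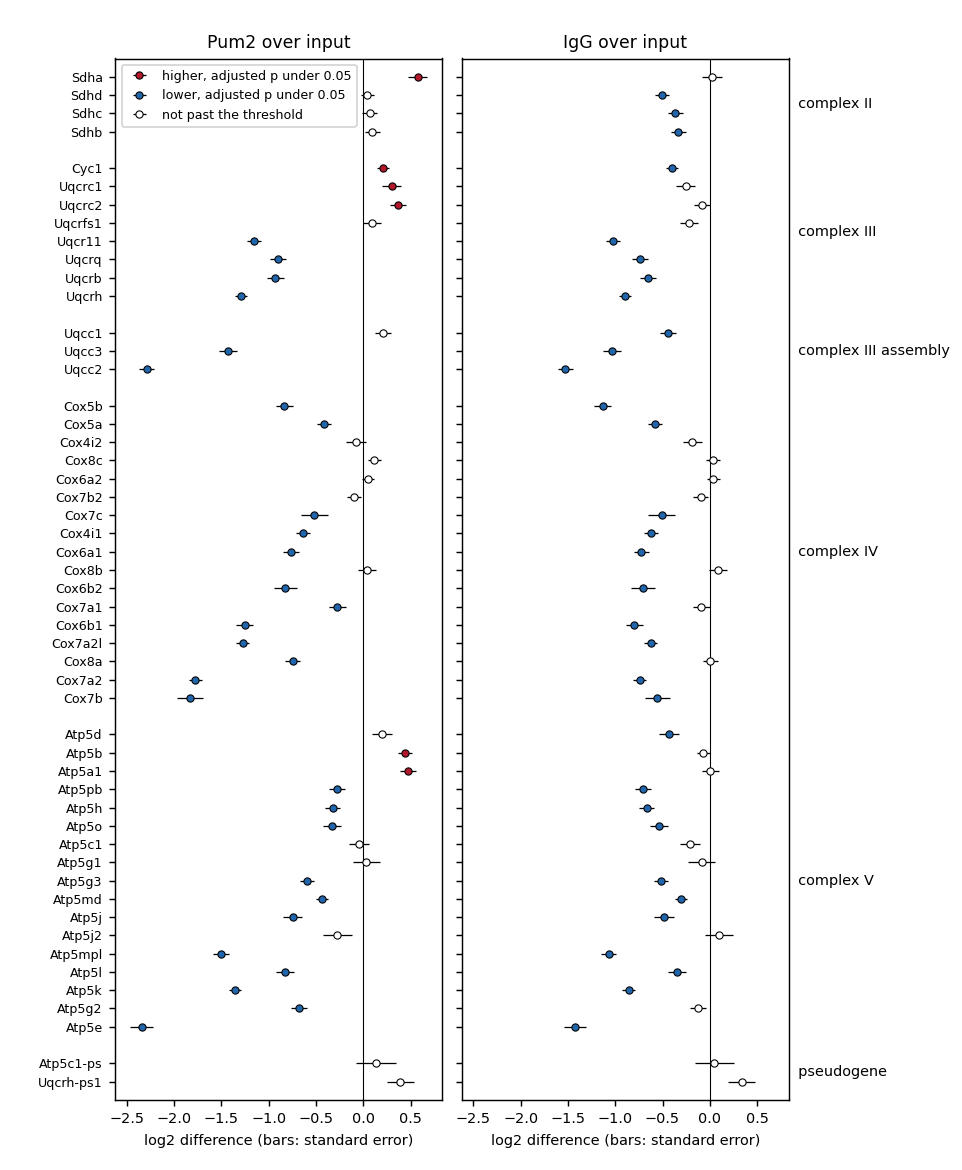
Log2 differences from input for Pum2 (left panel) and IgG (right panel) of the 51 genes (y axis), with standard errors as bars. No gene is past the threshold as higher with IgG, and the 6 filled points to the right of 0 in the left panel are Sdha, Cyc1, Uqcrc1, Uqcrc2, Atp5b and Atp5a1.

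Several subunits have paralogs with forms for most tissues and forms for muscle, testis or other tissues. An array row's brightness depends on its probes, so levels are compared between groups and not between paralogs. The rows of Cox6a2 and Cox8b, the muscle forms of subunits 6a and 8, and of Cox7b2 and Cox8c, forms known from testis, gave 5, 6, 5 and 5 distinct values over the 9 arrays and means of 5.48, 4.55, 3.08 and 3.96, below the median gene. None of the 4 passed in any comparison, with differences between -0.10 and 0.12. Cox4i2, the form of subunit 4 known from lung, had 6.13, 6.03 and 6.01 with Pum2, 5.99, 5.83 and 6.03 with IgG and 6.03, 6.002 and 6.36 in input, and passed in none (adjusted p = 0.492 for Pum2 over IgG). Cox7a1, the heart and muscle form, had 6.20, 6.43 and 6.20 with Pum2, 6.39, 6.43 and 6.57 with IgG and 6.45, 6.62 and 6.58 in input. It gave -0.19 ± 0.09 for Pum2 over IgG, not past the threshold (adjusted p = 0.165), and passed there as lower with arrays centred on brighter genes (-0.28).

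Cox6b2, a form known from testis, differed between precipitates and input. Its signals were 6.47, 6.59 and 6.26 with Pum2, 6.53, 6.68 and 6.48 with IgG and 7.33, 7.44 and 7.04 in input, and the arrays of both precipitates lay below all input arrays. The paralog Cox6b1 had 9.21, 9.16 and 9.48 with Pum2, 9.79, 9.75 and 9.67 with IgG and 10.48, 10.59 and 10.54 in input, in that order without overlap. Cox7a2l, named for its likeness to Cox7a2, showed the same order, with 7.12, 7.02 and 7.14 with Pum2, 7.73, 7.79 and 7.71 with IgG and 8.35, 8.41 and 8.35 in input.

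The genes of the ring of complex V, Atp5g1, Atp5g2 and Atp5g3, encode the same mature protein with different import sequences. Atp5g2 was measured at 10.58, 10.36 and 10.55 with Pum2, 11.07, 11.10 and 11.01 with IgG and 11.27, 11.16 and 11.11 in input. It fell against both IgG and input, by 0.56 ± 0.08 and 0.68 ± 0.08. Atp5g3 had 9.15, 9.20 and 9.27 with Pum2, 9.35, 9.22 and 9.29 with IgG and 9.85, 9.81 and 9.75 in input. It was lower than input in both precipitates (-0.59 with Pum2 and -0.51 with IgG) and differed from IgG by -0.08 ± 0.07, not past the threshold. Atp5g1 had 5.41, 5.50 and 5.52 with Pum2, 4.98, 5.65 and 5.45 with IgG and 5.45, 5.45 and 5.45 in input. Its row lay below the median gene and passed in no comparison. Whether the genes differ from each other in their change was not tested, and probes of close paralogs and of pseudogenes can cross-hybridise. The pseudogenes Atp5c1-ps and Uqcrh-ps1 gave 0.09 ± 0.21 and 0.06 ± 0.15 for Pum2 over IgG (adjusted p = 0.807 and 0.825). Without input replicate 3, Uqcrh-ps1 passed as higher with Pum2 than in input (0.53).

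**Figure D4:**
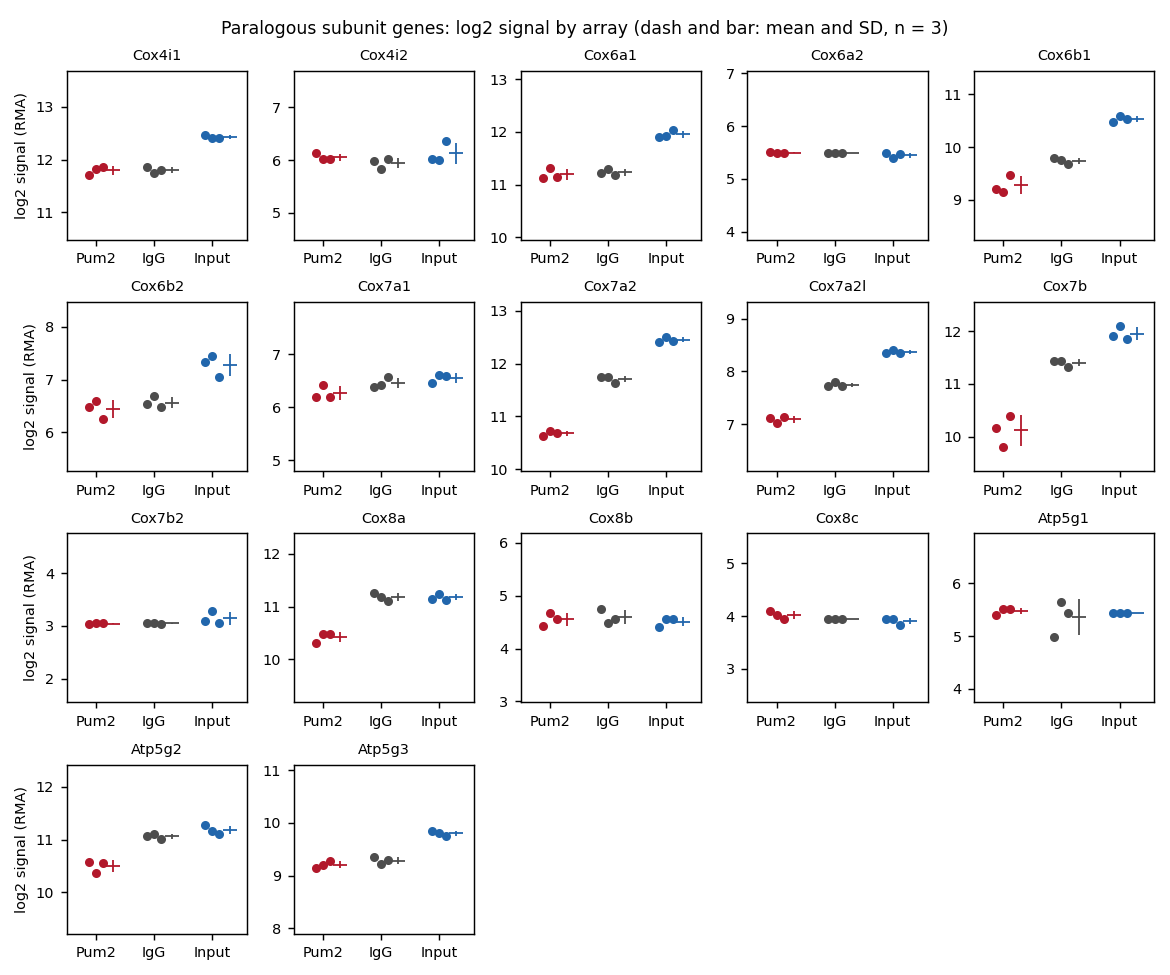
Log2 signal (y axis, windows of equal height) of 17 paralogous subunit genes in the Pum2, IgG and input arrays, with the mean and SD of 3 arrays beside the points. Cox7a2, Cox7a2l, Cox7b and Cox6b1 are lowest with Pum2, then IgG, then input, and the group means of Cox6a2, Cox7b2, Cox8b and Cox8c differ by no more than 0.12.

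Calls in IgG over input that ended in some fits without 1 array were those of Atp5d, Atp5l, Cox7b and Cox7c. The Atp5d call ended without IgG replicate 3 (-0.38) or input replicate 1 (-0.40), and that of Cox7b without IgG replicate 3 (-0.51) or input replicate 2 (-0.48). That of Atp5l ended without any 1 of IgG replicates 1 to 3 (-0.35, -0.35 and -0.34) or input replicates 1 to 3 (-0.36, -0.33 and -0.36). That of Cox7c ended without Pum2 replicate 1 (-0.51), IgG replicate 2 (-0.39) or input replicate 1 (-0.42) or 2 (-0.47). Quantile normalization ended the calls of Atp5l (-0.18), Atp5md (-0.16) and Cox7b (-0.42), the mean of rows that of Atp5h (-0.34) and a fit of only the compared groups that of Cox7c (-0.51). Atp5c1 and Uqcrfs1 passed as lower without IgG replicate 2 (-0.34) and IgG replicate 1 (-0.33).

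Of 35 listed factors that build or serve these complexes, outside the name rule, 31 were measured. In Pum2 over IgG 6 were higher (19.4%) and 13 lower (41.9%), with a median of -0.05. Of all genes 19.4% were higher and 11.4% lower, and of those at or above the median level 34.1% and 18%. The median level of these 31 genes was 8.08, against 6.08 for all genes. In IgG over input 1 was higher (3.23%, against 8.25% of all genes) and 19 lower (61.3%, against 9.72%), with a median of -0.38. Coa7, a factor of complex IV assembly, rose by 0.85 ± 0.07 over IgG, and Atpaf1, a chaperone of the F1 head, by 0.59 ± 0.09 (adjusted p = 2.2e-05 and 0.000628). Lyrm7, which guards the Rieske protein before it is inserted, fell by 1.52 ± 0.11, the copper chaperone gene Cox17 by 1.16 ± 0.09 and Cox16, another factor of complex IV, by 0.90 ± 0.10 (adjusted p = 1.09e-05, 1.55e-05 and 0.000119). Cytochrome c, Cycs, the carrier from complex III to complex IV, fell by 0.42 ± 0.08, and Ndufa4, now counted as a complex IV subunit, by 0.85 ± 0.08 (adjusted p = 0.00254 and 4.25e-05).

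Genes that carry the names of nuclear complex I subunits numbered 33, and Ndufa4 is counted among them again by its name. Of these 33 genes, 6 were higher in Pum2 over IgG (18.2%) and 11 lower (33.3%), with a median of -0.08. The shares were 19.4% and 11.4% of all genes, and 34.1% and 18% of those at or above the median level. The median level of the 33 genes was 9.77. In IgG over input 0 were higher by limma (also 0 at an unadjusted p under 0.05) and 26 lower (78.8%, against 9.72% of all genes), with a median of -0.72. The 10 mitochondrially encoded genes measured, which include partners of complexes III and IV, had a median of -3.27 in Pum2 over IgG and of -0.04 in IgG over input. Against IgG these 10 genes ran from -4.43 for ND3 to -1.26 for ND6, and all 10 were lower. Differences between these groups of genes were not tested.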

How the data were processed

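RNA was measured on 9 single-colour arrays. The deposited log2 values were made by the authors with RMA in Affymetrix Expression Console, per the submitters' processing notes, whose version was not stated there. RMA includes background correction and normalization between arrays. The table holds 41345 rows, of which 23521 carry 1 gene symbol. Each gene was read from its row with the highest mean over the 9 arrays, which left 22180 genes, and no low values were filtered. Rows with several symbols were left out (4 of them name genes of these complexes). Pum2, IgG and input arrays (3 each) were compared in a single limma fit (version 3.58.1, R 4.3.3) with 6 residual degrees of freedom, p-values being adjusted by Benjamini and Hochberg over all genes. The number of arrays limits precision, and exact permutation of 3 against 3 arrays allows no p below 0.1. Members, gene lists and roles were chosen with earlier results of these data known. Named genes: any member, and genes of fixed lists. Values of every array are given for members with the largest differences, the Sdh genes and paralogs, not for all of these. The fit was repeated with the replicate number as a block, without the group not compared, on genes at or above the median level, with limma's trend and robust options, after quantile normalization over genes, after centring arrays on brighter genes, with the mean of a gene's rows, and without each array. Promoter sequences and symbols came from RefSeq tables (GRCm38.p6), where all 51 genes matched by identifier. Promoters were looked up for the 49 protein-coding genes and not for the 2 pseudogenes, and 38 had one. No coordinates of the authors were used.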

Additional observations from a re-analysis of the deposited data

How the results depend on the processing

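The counts of higher and lower genes stayed within 1.5 times their values under every alternative run. Without 1 array they were 13 to 15 higher and 13 to 15 lower in Pum2 over IgG, 4 to 7 and 25 to 29 in Pum2 over input, and 0 and 29 to 32 in IgG over input. In Pum2 over IgG the balance moved toward lower genes under 2 settings. It was 13 higher and 17 lower after quantile normalization, and 13 higher and 20 lower with centring on brighter genes. Atp5h was the 1 member whose direction turned after a call, to -0.3016 in Pum2 over IgG with the mean of its 2 rows. The median of complex III in Pum2 over IgG, 0.095, turned to -0.0023 after quantile normalization and was 0.0003 with centring on brighter genes. Under these settings the median was 0.404 and 0.397 for complex II and -0.4822 and -0.4878 for the assembly factors, and with centring -0.133 for complex IV. Quantile normalization moved complex IV to -0.554 in Pum2 over input and to -0.4233 in IgG over input, and complex III to -0.3942 in IgG over input. Among genes at or above the median level, complex IV stood at -0.1855 in Pum2 over IgG, at -0.8266 in Pum2 over input and at -0.625 in IgG over input, and complex V at -0.5147 in Pum2 over input. The mean of rows moved complex V to -0.3473 in IgG over input. Without 1 array, medians in Pum2 over IgG ran from -0.4737 to -0.3382 for the assembly factors, and in IgG over input from -0.6044 to -0.4825 for complex IV and from -0.4612 to -0.3779 for complex V. The causes were not tested. Centring took the median of all genes in Pum2 over IgG from 0.043 to -0.051. Whether the replicate numbers pair the arrays was not tested. Deviations of same-numbered arrays correlated between 0.002 and 0.135, and those of differently numbered arrays between -0.13 and 0.041. With the replicate number as a block, the call of Uqcrb in Pum2 over IgG ended (-0.2783, adjusted p = 0.061), and no other call among the 51 genes changed. Dim rows with few distinct values limit what the arrays can show for Cox6a2, Cox7b2, Cox8b, Cox8c and Atp5g1. The rows of Atp5o, Atp5j2 and Cox7c had more distinct values but also lay below the median gene.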

Other observations

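Rows that carry several gene symbols were outside the comparisons and are given as values. Cox6c, a subunit of complex IV, shares 2 rows with Gm6265. The brighter one read 10.2, 10.3 and 10.6 with Pum2, 11.5, 11.4 and 11.3 with IgG and 12.2, 12.3 and 12.4 in input, so that the groups followed each other without overlap. The dimmer one read 6.05, 6.32 and 6.59 with Pum2, 6.71, 6.67 and 6.67 with IgG and 6.70, 6.91 and 6.80 in input. Uqcr10, a small subunit of complex III, shares a row with Gm6293, which read 5.88, 5.64 and 5.72 with Pum2, 6.40 in each IgG array and 7.37, 7.43 and 7.35 in input, also without overlap. A row shared by Uqcrb and Gm10767 read 5.20, 4.32 and 5.19 with Pum2, 4.94, 4.52 and 4.94 with IgG and 5.21, 5.10 and 4.78 in input, and its groups overlapped. None of these rows was tested.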
